A study of Mus musculus with 15 samples.

Results

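The Notch pathway was described through 10 genes: the receptors Notch1, Notch2, Notch3 and Notch4, the ligands Jag1, Jag2 and Dll4, and the target genes Hes1, Hey1 and Heyl. The members are all probe sets that the array annotation gives to 1 of these genes and to no other. They number 21 of the 45037 probe sets on the array, with 0 further probe sets shared with another gene. Of these 21, 16 had a mean signal above 100 over all arrays and were tested, and each of the 10 genes kept at least 1 of them, among 21658 tested probe sets of 11603 genes.

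Notch receptors are held at the cell surface and are activated by ligands on a neighbouring cell. The receptor is then cut by an ADAM protease and by γ-secretase, and its intracellular domain joins the DNA-binding protein Rbpj to switch on genes of the Hes and Hey families. In the lung, Notch signals take part in the choice between secretory and ciliated cells of the airway, and in the vasculature Dll4 and Notch4 are known chiefly from endothelium and Notch3 from smooth muscle and pericytes.

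The tissue came from SP-C/c-raf mice, in which the promoter of the surfactant protein C gene drives a c-raf transgene in alveolar type 2 cells, a mouse that develops dysplasia and lung tumours. The mice were kept on the C57BL/6 background for 5 or more generations. Dysplastic foci (5 arrays) and morphologically unaltered tissue (5 arrays, called transgenic below) were laser-microdissected from transgenic mice aged 5 to 7 months, and non-transgenic littermates aged 7 to 10 months gave the other 5 arrays. Controls and transgenic mice therefore differ in age as well as in the transgene, and these cannot be told apart. By Xist, a female-specific transcript, most controls read as female and most transgenic arrays as male. Xist read 11510 to 15050 on non-transgenic 2 to 5 and 113.6 on non-transgenic 1. It read 12010 on transgenic 3 and 62.18 to 95.75 on the other transgenic arrays. Dysplasia 3 and 4 read 12640 and 9674, and the other dysplasia arrays 48.65 to 166.4. Per the methods, 5 transgenic mice gave both dysplastic and unaltered tissue, so these arrays are not from separate animals, and 5 non-transgenic mice gave the controls. The titles give a group and a number per array and name no animal. The signal of a probe set is the intensity the authors scaled per array.

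Between 44.1% and 49.9% of probe sets read above 100 on an array. For transgenic 2 the labels conflict, since the title gives unaltered transgenic tissue and another entry gives tumor. On dysplasia 4 the female-specific transcript Xist read 9674 while Y-linked transcripts summed to 1088, whereas transgenic 4 read 84.98 for Xist and 2398 for the Y-linked sum. Without these 2 arrays, the same 8 member probe sets passed the test between dysplasia and transgenic tissue, with adjusted p from 1.46e-05 to 0.0177 by limma. RNA integrity was read from actin, as the 5′ signal in percent of the 3′ signal. Its median was 57.1% on dysplasia, 38.9% on transgenic and 31.0% on non-transgenic arrays. The groups overlapped, with ranges of 25.1% to 75.2%, 12.5% to 63.4% and 14.1% to 72.8%.

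In dysplasia the Notch genes moved in both directions. Against transgenic tissue, Notch3, Notch4, Jag2, Dll4 and Hey1 were lower, Jag1 was higher, and Notch1, Notch2, Hes1 and Heyl had an adjusted p above 0.05. On probe sets this is 1 of 16 higher and 7 of 16 lower (6.25% and 43.8%), where 15.3% of all tested probe sets were higher and 17.9% were lower. With the array number as a replicate block, which pairs these arrays, Notch1 (1418634_at) and Hes1 also passed, giving 2 of 16 higher and 8 of 16 lower, while the shares over all tested probe sets were 23.4% and 25.8% in that fit. The 5 dysplasia arrays did not overlap with the 5 transgenic arrays in 7 of the 16 (43.8%), as against 25.3% of all tested probe sets. Against non-transgenic tissue, 2 of 16 were higher and 8 were lower, beside 20.7% and 23.3% over all tested probe sets, and 8 of 16 did not overlap, beside 33.3%. Between transgenic and non-transgenic tissue, 0 of 16 passed, where 1.17% of all probe sets were higher and 0.0831% lower. In that comparison, 0 of 16 did not overlap (4.3% of all), 1 had an unadjusted p under 0.05 by limma, and SAM also called 0. The comparisons with dysplasia share the same 5 dysplasia arrays. Log2 changes were taken after adding 50 to each signal, so that those of dim probe sets come out smaller than their ratios, and p-values are those of limma adjusted over all tested probe sets.

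**Figure D1:**
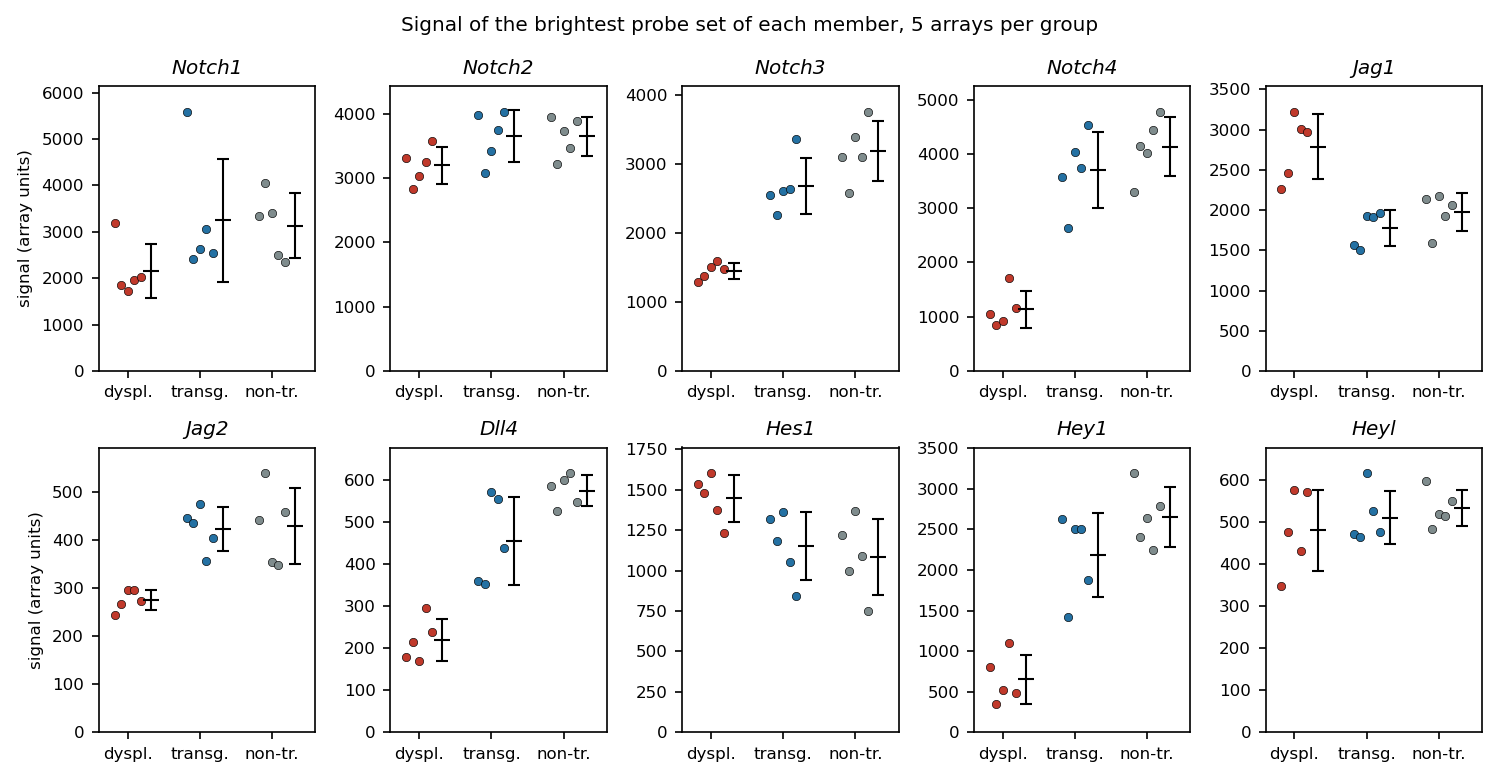
Signal in array units (vertical axis, from 0) of the brightest probe set of each of the 10 members. Each point is 1 of 5 arrays per group (dyspl., dysplasia; transg., transgenic; non-tr., non-transgenic), and the bar beside the points gives the mean ± SD. The dysplasia arrays lie below all others for Notch3, Notch4, Jag2, Dll4 and Hey1 and above all others for Jag1.

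Among the receptors, Notch4 was the one that fell most. Its signal (1449146_at) was 1054, 842.1, 916.2, 1716 and 1159 on the dysplasia arrays, 3577, 2637, 4035, 3737 and 4542 on the transgenic arrays and 3303, 4157, 4016, 4436 and 4778 on the non-transgenic arrays. Every dysplasia array was below every other array, and dysplasia 4 was the highest of the 5. The means were 1137 ± 346 (SD, n = 5), 3706 ± 701 and 4138 ± 550. This is a log2 change of -1.68 (standard error 0.20, adjusted p = 6.55e-05) against transgenic and -1.85 (adjusted p = 9.71e-06) against non-transgenic tissue. Without dysplasia 4 and transgenic 2 the change against transgenic tissue was -1.95. The other 2 probe sets of Notch4, 1436901_at and 1456263_at, averaged 27.4 and 95.8 over the 15 arrays and were not tested.

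Notch3, the receptor best known from mural cells of vessels, fell on both of its probe sets. On the brighter one (1421965_s_at) the dysplasia arrays read 1291, 1381, 1508, 1598 and 1486, the transgenic arrays 2548, 2270, 2607, 2643 and 3360, and the non-transgenic arrays 3106, 2589, 3395, 3107 and 3759. The dysplasia arrays stood below all others with a gap wider than their own range. The mean of 1453 ± 119 (SD, n = 5) compares with 2685 ± 405 and 3191 ± 431, a log2 change of -0.86 (standard error 0.11, adjusted p = 0.000155) and of -1.10 (adjusted p = 1.19e-05). On 1421964_at the log2 change was -1.01 (adjusted p = 0.000531) and -1.26 (adjusted p = 0.000133).

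Notch1 was lower on average in dysplasia but its arrays overlapped. On 1418634_at the signal was 3185, 1861, 1723, 1961 and 2035 in dysplasia, 5584, 2408, 2635, 3060 and 2539 in transgenic, and 3349, 4046, 3411, 2496 and 2351 in non-transgenic tissue. Dysplasia 1 and transgenic 1 each stood well above the rest of their group. The log2 change was -0.54 in both comparisons, with an adjusted p = 0.108 against transgenic and 0.0413 against non-transgenic tissue by limma. With the array number as a replicate block, the adjusted p against transgenic tissue was 0.00131. Without dysplasia 1 it was 0.0404. The call against non-transgenic tissue was lost when any 1 of 7 arrays was left out (dysplasia 2, 3, 4 or 5, non-transgenic 1, 2 or 3), with adjusted p from 0.0740 to 0.0947. The second probe set, 1418633_at, gave -0.33 (adjusted p = 0.483) and -0.64 (adjusted p = 0.181), and against non-transgenic tissue it passed with the array number as a block (adjusted p = 0.0360), with the actin ratio as a covariate (adjusted p = 0.000161) and by SAM.

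Notch2 changed least among the receptors. Its signal (1455556_at) was 3304, 2833, 3026, 3243 and 3582 in dysplasia, 3977, 3070, 3417, 3753 and 4027 in transgenic, and 3954, 3224, 3730, 3469 and 3882 in non-transgenic tissue. The 3 groups overlapped, although each dysplasia array was below the transgenic array of its own number. The log2 change against transgenic tissue was -0.19, with a 95% interval from -0.42 to 0.04 (adjusted p = 0.211, limma, and 0.0503 with the array number as a replicate block), and against non-transgenic tissue it was -0.19 (adjusted p = 0.128). Its other probe set, 1451889_at, averaged 25.2 and was not tested.

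Whether the receptors changed by unequal amounts was tested on the within-array difference of 2 members. Over 24 such tests, 12 pairs of members of the same role in 2 comparisons, 18 had an adjusted p under 0.05 by a two-sided exact permutation test over arrays, whose smallest possible p is 0.00794. Notch4 fell further than Notch2 in both comparisons (log2 changes of -1.68 beside -0.19 and of -1.85 beside -0.19), and it fell further than Notch3 by 0.83 and 0.75 (exact permutation test, adjusted p = 0.0136, 0.0136, 0.0136 and 0.0212). Notch3 fell further than Notch2 by 0.67 and 0.91 (exact permutation test, adjusted p = 0.0136 for each). The difference between Notch1 and Notch2, -0.36 and -0.35, did not pass (exact permutation test, adjusted p = 0.174 and 0.165).

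Jag1 was the only one of the 10 members called higher in dysplasia in both comparisons. Jag1 encodes a ligand of the Jagged class. On its bright probe set (1434070_at) the signal was 2262, 2463, 3221, 3012 and 2971 in dysplasia, 1560, 1498, 1931, 1910 and 1964 in transgenic, and 2133, 1589, 2176, 1930 and 2066 in non-transgenic tissue. All 5 dysplasia arrays were above the other 10, and the lowest of them, dysplasia 1 at 2262, was close to the highest non-transgenic array at 2176. The means were 2786 ± 404 (SD, n = 5), 1773 ± 224 and 1979 ± 237. Jag1 thus rose by a log2 change of 0.64 (standard error 0.13, adjusted p = 0.00252) and 0.48 (adjusted p = 0.00892). The dimmer probe set 1421106_at, with signals from 74.5 to 317.9 over the 15 arrays, gave 0.18 (95% interval -0.44 to 0.80, adjusted p = 0.692) and 0.11 (adjusted p = 0.791). The third, 1421105_at, averaged 56.0 and was not tested, so the rise rests on 1 of the 3 probe sets.

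Jag2, the other Jagged ligand, fell. Its signal (1426430_at) was 244, 266.8, 296, 295.2 and 273.3 in dysplasia, 444.2, 433.8, 474.3, 356.4 and 403 in transgenic, and 441.9, 537.8, 354.8, 348.4 and 456.9 in non-transgenic tissue. Dysplasia was below all other arrays. The log2 change was -0.54 in both comparisons (standard error 0.10 and 0.12, adjusted p = 0.00114 and 0.00308). The second probe set (1426431_at) overlapped between groups and gave -0.45 (adjusted p = 0.210) and -0.52 (adjusted p = 0.0694), and the latter was 0.0370 without dysplasia 1 and 0.0243 without dysplasia 2. It also passed with the array number as a block, with Xist or the actin ratio as a covariate, and by SAM.

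Dll4, the Delta-type ligand of endothelium, fell on both of its probe sets. On 1421827_at the signal was 179.2, 214.4, 170.2, 296.7 and 239.1 in dysplasia, 359.4, 353, 571.2, 554.6 and 439.1 in transgenic, and 587.6, 526.7, 600.7, 616.6 and 547.6 in non-transgenic tissue. The dysplasia arrays were below all others, and here too dysplasia 4 was the highest of them. The means were 219.9 ± 51.1 (SD, n = 5), 455.5 ± 104 and 575.8 ± 37.5. The log2 change was -0.90 (standard error 0.17, adjusted p = 0.00151) and -1.23 (adjusted p = 1.47e-05), and on 1421826_at it was -0.99 (adjusted p = 0.00310) and -1.12 (adjusted p = 0.000686). Dll4 was also the 1 member probe set with an unadjusted p under 0.05 between transgenic and non-transgenic tissue, at a log2 change of -0.33 (adjusted p = 0.349, limma).

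Jag1 parted from the other ligands by more than the spread between arrays. The change of Jag1 exceeded that of Jag2 by 1.17 and 1.02 on the log2 scale, and that of Dll4 by 1.54 and 1.71 (exact permutation test, adjusted p = 0.0136 for each). Dll4 fell further than Jag2 by 0.69 against non-transgenic tissue (exact permutation test, adjusted p = 0.0212), while the difference of 0.36 against transgenic tissue did not pass (exact permutation test, adjusted p = 0.127).

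The target genes gave 3 different results. Hey1, a repressor related to the hairy protein of flies and a known Notch target of endothelium, had the largest fall in log2 change among the 10 members, in both comparisons. Its signal (1415999_at) was 804.2, 350.8, 516.9, 1101 and 490.3 in dysplasia, 2623, 1426, 2506, 2499 and 1882 in transgenic, and 3189, 2402, 2646, 2244 and 2791 in non-transgenic tissue. The groups did not overlap: the highest dysplasia array, dysplasia 4, stood at 1101 and the lowest transgenic array, transgenic 2, at 1426. The means were 652.6 ± 300 (SD, n = 5), 2187 ± 515 and 2655 ± 366. The log2 change was -1.74 (standard error 0.28, adjusted p = 0.000541) and -2.04 (adjusted p = 5.68e-05). Without dysplasia 4 and transgenic 2, the change against transgenic tissue was -2.08 (adjusted p = 0.000142, limma).

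Hes1, the repressor that many tissues use as a Notch target, tended the other way. Its signal (1418102_at) was 1535, 1481, 1600, 1376 and 1233 in dysplasia, 1317, 1185, 1364, 1054 and 840.3 in transgenic, and 1222, 996.6, 1369, 1092 and 750.4 in non-transgenic tissue. The groups overlapped, although each dysplasia array was above the transgenic array of its own number. The log2 change was 0.33 (adjusted p = 0.0865) against transgenic and 0.42 (adjusted p = 0.0396) against non-transgenic tissue by limma, and 0.33 with an adjusted p = 0.00734 with the array number as a replicate block against transgenic tissue. The call against non-transgenic tissue was lost without any 1 of 7 arrays (dysplasia 1, 2, 3 or 4, non-transgenic 2, 4 or 5), with adjusted p from 0.0578 to 0.0869, and with Xist as a covariate (adjusted p = 0.0912).

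Heyl, a Hey family gene known from vascular smooth muscle, did not pass the test in either comparison. Its signal (1419302_at) was 348.4, 475.9, 576, 429.3 and 569.2 in dysplasia, 471.9, 462.7, 614.5, 525.3 and 474.9 in transgenic, and 595.5, 482.5, 519.3, 514.4 and 548.5 in non-transgenic tissue. The dysplasia arrays ran from below all others up to 576, which only transgenic 3 and non-transgenic 1 exceeded. The log2 change against transgenic tissue was -0.09 (95% interval -0.40 to 0.21, adjusted p = 0.668) and against non-transgenic tissue -0.15 (95% interval -0.44 to 0.13, adjusted p = 0.377). On 1438886_at it was 0.17 (adjusted p = 0.398) and -0.02 (adjusted p = 0.918), and the third probe set averaged 84.3 and was not tested.

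Hey1 differed from both other targets. Its change was lower than that of Hes1 by 2.07 and 2.45 on the log2 scale, and lower than that of Heyl by 1.64 and 1.88 (exact permutation test, adjusted p = 0.0136 for each). Hes1 and Heyl differed by 0.42 against transgenic (exact permutation test, adjusted p = 0.0802) and by 0.57 against non-transgenic tissue (exact permutation test, adjusted p = 0.0212, but 0.0602 to 0.0635 without dysplasia 1, 2, 3 or 4 or non-transgenic 5).

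**Figure D2:**
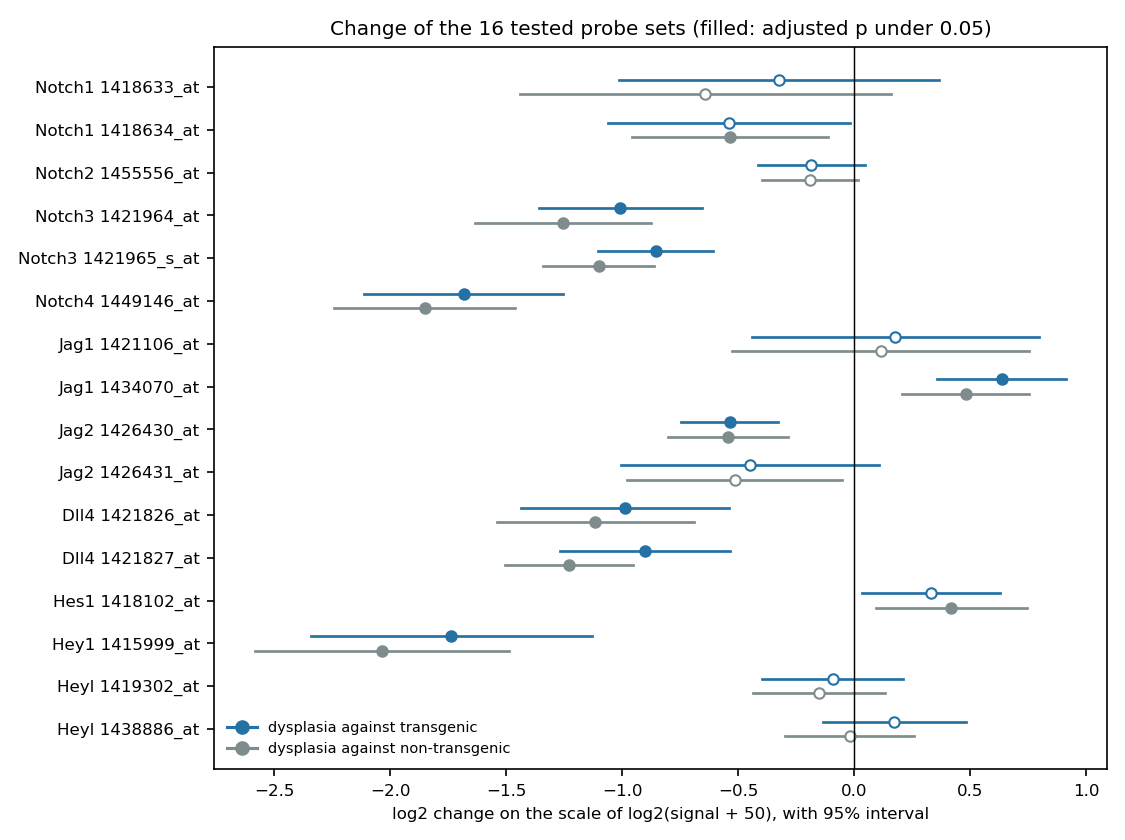
Log2 change of the 16 tested member probe sets, dysplasia against transgenic (blue) and against non-transgenic tissue (grey), with the 95% interval of limma on the scale of log2(signal + 50). Filled points have an adjusted p under 0.05. Hey1 (-1.74 and -2.04) and Notch4 (-1.68 and -1.85) lie furthest to the left, and only Jag1 on 1434070_at is filled to the right of 0 in both comparisons.

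In transgenic against non-transgenic tissue the brightest probe sets of the 10 members changed by -0.33 (Dll4) to 0.09 (Hes1) on the log2 scale, with a median of -0.11, and none passed the test by limma. The number of arrays limits what this comparison can show.

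The cell types of the samples were checked by marker genes fixed as lists. Over all tested probe sets, 15.3% were higher and 17.9% lower against transgenic tissue, and 20.7% and 23.3% against non-transgenic tissue. Of 21 endothelial markers, 21 were lower in dysplasia in both comparisons, with a median log2 change of -1.61 and -1.82, where the median over all tested genes was -0.01 in each. Their summed signal was 29970 to 44630 in dysplasia, against 85760 to 114400 in transgenic and 102200 to 125400 in non-transgenic tissue. In bulk tissue, fewer cells of a type and less RNA per cell cannot be told apart. Dysplasia over transgenic, the summed endothelial signal stood at a ratio of 0.347, beside ratios of 0.307 for Notch4, 0.298 for Hey1 and 0.483 for Dll4. Dysplasia 4 had the highest endothelial sum of its group and the highest Notch4, Hey1 and Dll4 (1421827_at) signals, and transgenic 2 had the lowest of each in its group. The order within groups was not the same throughout. Non-transgenic 1 had the highest endothelial sum (125400) with the lowest Notch4 signal of its group (3303), and non-transgenic 5 the lowest sum (102200) with the highest Notch4 signal (4778). On the other Dll4 probe set (1421826_at), dysplasia 1 was the highest of its group (210.2) and transgenic 5 the lowest of its own (206.4). None of the endothelial markers was below 100 on all arrays. Of 8 tested markers of arterial endothelium, 6 were lower and 0 higher in both comparisons, with a sum of 6403 to 9748 in dysplasia and 18110 to 22050 in transgenic tissue, and a further one, Gja5, was below 100 on all arrays. The part of endothelium in the change of these members was not tested.

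**Figure D3:**
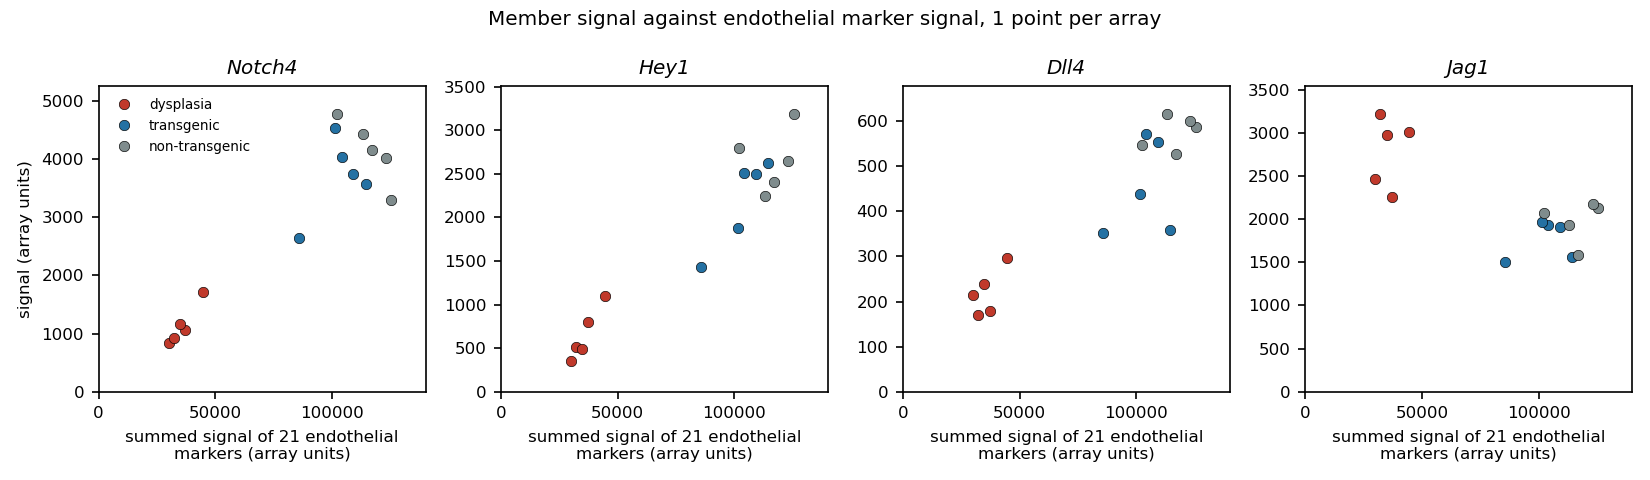
Signal of Notch4, Hey1, Dll4 and Jag1 (brightest probe set, array units) against the summed signal of 21 endothelial markers (array units), 1 point per array and 5 arrays per group. The dysplasia arrays sit at the lower left for Notch4, Hey1 and Dll4, with dysplasia 4 as their upper right point (endothelial sum 44630), and at the upper left for Jag1.

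Smooth muscle and pericyte markers, the setting in which Notch3 is best known, were lower for 9 of 12 against transgenic and 12 of 12 against non-transgenic tissue. Their summed signal was 9618 to 13330 in dysplasia, against 16700 to 21880 in transgenic and 22210 to 24900 in non-transgenic tissue, a ratio of 0.603 and 0.503. Beside it stand 0.541 and 0.455 for Notch3 (1421965_s_at), but 0.941 and 0.902 for Heyl (1419302_at). Fibroblast markers were lower for 6 of 11 in each comparison, with a sum of 35180 to 54460 in dysplasia and 73390 to 92020 in transgenic tissue. The ratios of the fibroblast sum were 0.541 and 0.507, so the Notch3 ratios are not particular to the smooth muscle and pericyte markers. The part of these cell types in the change of Notch3 was not tested.

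Epithelial markers differed by cell type. Of 9 alveolar type 2 markers, 1 was higher and 0 lower against transgenic tissue, and 4 were higher and 0 lower against non-transgenic tissue (median log2 change 0.114 and 0.295). Their summed signal was 131500 to 218600 in dysplasia, against 120700 to 196500 in transgenic and 109700 to 144300 in non-transgenic tissue. Of 10 ciliated cell markers 5 were tested, since Foxj1, Dnah5, Ccdc39 and Tekt1 lay below the signal limit and Mcidas had no probe set. All 5 were higher against transgenic and 2 of 5 against non-transgenic tissue. Their sum was 2488 to 4466 in dysplasia, against 1130 to 1484 in transgenic and 1098 to 2170 in non-transgenic tissue. Rsph1 averaged above the limit only in dysplasia (202.6, against 55.65 in transgenic and 96.04 in non-transgenic tissue), so its call is tied to that limit. Of 7 club cell markers 4 were higher and 1 lower against transgenic tissue, with sums of 50340 to 97860 and 52690 to 66790, and 0 were higher and 1 lower against non-transgenic tissue, whose sums were 52670 to 83940. Among alveolar type 1 markers 6 of 9 were lower and 1 higher in each comparison. The part of these cell types in the rise of Jag1 was not tested. Macrophage markers were lower for 6 of 9 and higher for 2 against transgenic tissue, and lower for 2 and higher for 3 against non-transgenic tissue. Their summed signal was 28220 to 33690 in dysplasia, against 36750 to 43410 in transgenic and 26410 to 38890 in non-transgenic tissue. Between transgenic and non-transgenic tissue 3 of the 9 were higher, namely Cd68, Mrc1 and Siglecf, and their part in the member values was not tested. The basal cell markers Trp63, Krt5, Krt14 and Krt15 and the neuroendocrine markers Chga, Chgb, Resp18 and Scg5 were below 100 on all arrays. The basal marker Ngfr and the neuroendocrine marker Uchl1 (highest signal 123.7) were not, but both lay below the signal limit and were not tested. Syp, the only tested neuroendocrine marker, was lower in both comparisons (adjusted p = 0.000331 and 3.1e-05, limma). Its mean was 66.41 in dysplasia, under the signal limit, against 126.4 in transgenic and 144.1 in non-transgenic tissue. Mesothelial markers were lower for 4 of 4 in both comparisons.

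The other genes of the pathway were read from lists by role. Beside their counts stand the shares over all tested probe sets. These were 15.3% higher and 17.9% lower against transgenic tissue, and 20.7% higher and 23.3% lower against non-transgenic tissue. Among other ligands and ligand-like proteins, 3 of 6 measured genes fell and 1 rose against transgenic tissue, with a median log2 change of -0.59. Dll1, a Delta ligand, went from 1426 ± 504 (SD, n = 5) in transgenic to 605.4 ± 72.6 in dysplasia (log2 change -1.12, adjusted p = 0.000869). Mfap2, a microfibril protein that can bind Notch ligands, fell by 1.04 and Cntn1, a contactin, by 1.06 on the log2 scale (adjusted p = 1.20e-05 and 2.66e-05). The mean of Cntn1 was 32.38 in dysplasia, under the signal limit, against 120.3 in transgenic and 151.3 in non-transgenic tissue. Mfap2 was brighter, with a mean of 742.0 in dysplasia and 1584 in transgenic tissue. Dlk1, a membrane protein related to Delta ligands, rose from 40.71 ± 15.9 in non-transgenic over 757.9 ± 201 in transgenic to 3415 ± 1574 in dysplasia (adjusted p = 3.71e-05, 0.000418 and 2.94e-07 for the 3 steps of transgenic against non-transgenic, dysplasia against transgenic and dysplasia against non-transgenic tissue, limma).

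Enzymes that add sugars to the Notch receptor moved in 1 direction where they moved. Of 6 measured, 4 fell and 0 rose in each comparison. Over all tested probe sets, 17.9% were lower against transgenic and 23.3% against non-transgenic tissue. Mfng, a fringe that extends O-fucose on Notch, went from 948.2 ± 95.1 to 489.8 ± 52.5 (log2 change -0.89, adjusted p = 6.60e-05). Eogt fell by 0.64, Pofut1 by 0.41 and Poglut1 by 0.36 (adjusted p = 0.000114, 0.0102 and 0.00751), while Lfng (-0.42, adjusted p = 0.152) and Rfng (-0.06, adjusted p = 0.782) did not pass. The same 4 genes were called against non-transgenic tissue.

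The genes that cut the receptor and those that act in the nucleus were counted apart. Of 8 measured cleavage genes, 1 fell and 0 rose against transgenic tissue, namely Aph1a, a γ-secretase subunit (log2 change -0.50, adjusted p = 0.00191), and the proteases Adam10 (0.04, adjusted p = 0.860) and Adam17 (0.14, adjusted p = 0.451) did not pass. Against non-transgenic tissue Aph1b also fell (-1.16, adjusted p = 0.0318) and the γ-secretase subunit Psenen rose (0.26, adjusted p = 0.0323). Of 17 nuclear genes, 2 rose and 1 fell against transgenic tissue. Rbpj, the DNA-binding partner of Notch, read 2042 ± 286 in dysplasia, against 2412 ± 395 in transgenic and 2475 ± 439 in non-transgenic tissue (SD, n = 5 each, log2 change -0.23, adjusted p = 0.234). The Groucho-family corepressor genes parted, with Tle4 lower (-1.05, adjusted p = 0.000131) and Tle2 (0.65, adjusted p = 0.0174) and Tle3 (0.50, adjusted p = 0.00313) higher. Maml1, a coactivator, was called lower against non-transgenic tissue (-0.45, adjusted p = 0.0217).

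Among genes of endocytosis and ubiquitin ligases, 4 of 16 fell and 2 rose against transgenic tissue, where 17.9% of all tested probe sets were lower and 15.3% higher. Whether this list differs from those shares was not tested. Numb, an inhibitor of Notch in asymmetric division, went from 5936 ± 726 to 3177 ± 316 (SD, n = 5, log2 change -0.89, adjusted p = 0.000118), Fbxw7, which marks the Notch intracellular domain for degradation, fell by 0.56 (adjusted p = 0.00319), and Dtx1, a Deltex ligase, fell by 0.67 and Mib2 by 0.35 (adjusted p = 0.0102 and 0.0152). Neurl1a (0.66, adjusted p = 0.0100) and Dtx4 (0.49, adjusted p = 0.0323) were higher.

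Of 9 further Hes, Hey and target genes on the array only 3 had a tested probe set, and all 3 were called in both comparisons. Nrarp, a feedback inhibitor induced by Notch, went from 2687 ± 654 in transgenic to 1440 ± 160 in dysplasia (SD, n = 5, log2 change -0.85, adjusted p = 0.00151), in the direction of Hey1. Hes6, a Hes protein that can oppose Hes1, rose from 715.4 ± 58.6 to 1140 ± 73.2 (log2 change 0.64, adjusted p = 0.000213). Bhlhe40, which many other signals also induce, rose from 2913 ± 864 to 4362 ± 771 (log2 change 0.61, adjusted p = 0.0362). Hes2, Hes3, Hes5, Hes7, Hey2 and Bhlhe41 lay below the signal limit.

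**Figure D4:**
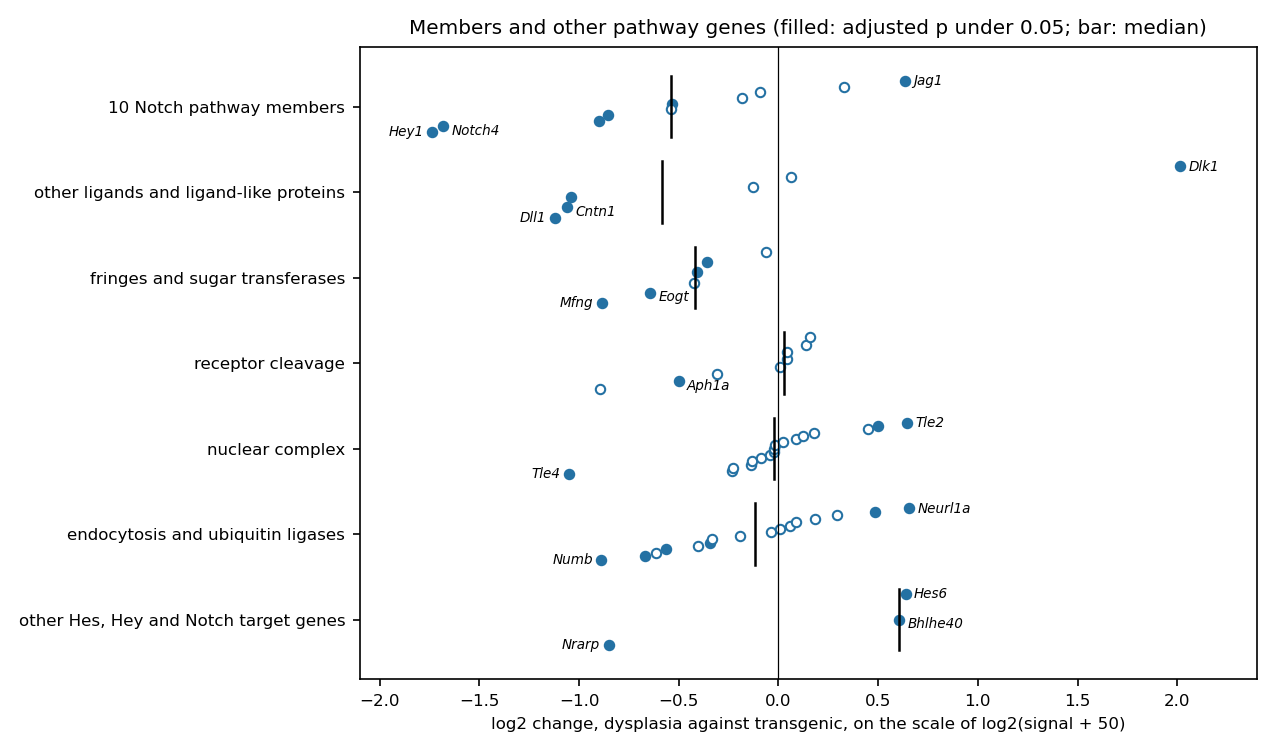
Log2 change in dysplasia against transgenic tissue (horizontal axis, scale of log2(signal + 50)) of the 10 members and of 6 lists of other pathway genes, 1 point per gene at its brightest tested probe set. Filled points have an adjusted p under 0.05 (limma) and bars are medians. The members have a median of -0.54, the sugar transferases lie at or left of 0, and the cleavage and nuclear genes cluster around 0 with medians of 0.03 and -0.02.

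The genes whose pattern over the 15 arrays was most like each member are given as a description, since the arrays share groups and array numbers. For Notch4 they were Spock2, Fam162b and Scube2 (Pearson r = 0.995, 0.995 and 0.993 on the log2 scale), and Spock2 and Fam162b led again once group means were subtracted (r = 0.954 and 0.947). For Hey1 they were Acer2, Smad6 and Crispld2 (r = 0.987, 0.986 and 0.984). For Dll4 they were Zfp365, Jcad and Tbx4 (r = 0.975, 0.974 and 0.973). Within groups, Jcad and Cdh5, the cadherin of endothelial junctions, came first for Dll4 (r = 0.873 and 0.869). For Jag1, Anapc7, Cnpy2 and Atp5j2 led (r = 0.945, 0.943 and 0.942), and for Hes1, Aimp2 (r = 0.962). Notch1 was most like Cebpd and the small heat shock gene Hspb1 over the arrays (r = 0.941 and 0.936). Within groups Prkd2 came first for Notch1 (r = 0.957), before Dnaja1, another chaperone gene, and Sh2d3c (r = 0.939 for each). Over the arrays, Notch2 was most like Btbd1 (r = 0.946) and Notch3 most like Rab2b (r = 0.983). Jag2 was most like B3gnt2 (r = 0.933) and Heyl most like Mcts2 (r = 0.87). Within-group genes are named for Notch4, Dll4 and Notch1 only. Between members, within groups, the highest correlation was that of Notch3 and Jag1 (r = 0.767), which moved in opposite directions between groups. Jag1 and Heyl (r = 0.68) and Notch2 and Notch3 (r = 0.614) followed. Notch4 and Hey1 correlated at r = 0.607 and Notch4 and Dll4 at r = 0.601, but Dll4 and Hey1 at r = 0.409.

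The promoters of Notch4 and Dll4, which fell together, and of Jag1, which rose, are shown for their sequence. Each is the 250 bases before the transcript start of the RefSeq promoter table (GRCm38.p6), 5′ to 3′ on the strand of the gene, at chr17:34564045-34564294 (plus strand) for Notch4, chr2:119325534-119325783 (plus strand) for Dll4 and chr2:137116521-137116770 (minus strand) for Jag1. The Notch4 window reaches into the gene as RefSeq bounds it, whose first base is 34564286. Capitals mark AGGAAG on either strand, the core of an ETS-type site, chosen after the values were seen.
Notch4: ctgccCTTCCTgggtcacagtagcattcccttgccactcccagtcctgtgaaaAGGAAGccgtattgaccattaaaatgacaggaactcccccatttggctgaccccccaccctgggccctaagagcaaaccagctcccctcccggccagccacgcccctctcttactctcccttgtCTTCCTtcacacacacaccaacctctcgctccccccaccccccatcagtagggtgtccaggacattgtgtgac
Dll4: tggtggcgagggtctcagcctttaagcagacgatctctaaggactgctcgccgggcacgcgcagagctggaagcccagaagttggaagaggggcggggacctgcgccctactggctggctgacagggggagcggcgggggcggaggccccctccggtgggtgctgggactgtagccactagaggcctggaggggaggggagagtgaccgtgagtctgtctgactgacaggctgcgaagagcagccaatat
Jag1: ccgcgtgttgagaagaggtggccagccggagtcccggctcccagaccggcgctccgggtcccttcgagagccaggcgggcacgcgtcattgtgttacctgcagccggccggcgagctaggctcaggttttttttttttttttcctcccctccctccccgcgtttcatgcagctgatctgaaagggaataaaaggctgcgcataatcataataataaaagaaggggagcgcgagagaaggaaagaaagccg
Promoters were searched for 7 of the 10 members, the receptors and ligands. As for Notch4, the Notch3 window (minus strand, from 32166891) reaches into its gene, whose last base is 32166896. The Jag2 window (minus strand, 112929496 to 112929745) lies wholly within its gene as RefSeq bounds it (112907803 to 112929812). Those of the target genes Hes1, Hey1 and Heyl were not analysed here, so the counts below are not counts over Notch targets. The Rbpj-type motif GTGGGAA, sought on both strands, was in 0 of these 7 windows and in 5.42% of the 32851 mouse promoter windows of the same length, and its shorter core TGGGAA, which every GTGGGAA contains, in 0 of 7 and in 21.6%. AGGAAG occurred 3 times in the Notch4 window, in 0 of the other 6 windows, and in 29.5% of all windows. A match or its absence describes the letters of the window only.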

How the data were processed

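Each array (Affymetrix Mouse Genome) carried RNA of 1 laser-microdissected lung sample. The deposited values are intensities: the authors computed 1 signal per probe set in GCOS (version not given in the sources used here) and brought all arrays to a common target. They were used as deposited, and raw scans were not analysed here. Without the 64 controls, 34945 of 45037 probe sets had 1 gene symbol, 932 several and 9160 none in the platform annotation. Of the single symbols, 34741 matched the current gene table.

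A probe set was tested if its signal averaged over 100 on the 15 arrays. Values were fitted on log2(signal + 50) with limma 3.58.1 in R 4.3.3, 2 groups at a time and unpaired, with Benjamini-Hochberg adjustment over all 21658 tested probe sets and a threshold of 0.05. The brightest probe set stood for a gene in counts of genes. Pairs of members were compared by exact permutation tests, adjusted over all 24. The code of the limma fit, of SAM and of the exact permutation test was tested on simulated data.

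All 10 members were named with every probe set, and of each other pathway list up to 4 genes per direction with the smallest p, beside genes that did not pass and are given as values. The 3 genes most like a member were taken by Pearson correlation. Members and lists were chosen with earlier results of these data known.

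Per the methods, the transgenic mice gave both dysplastic and unaltered tissue. Deviations from group means correlated at 0.219 to 0.773 (mean 0.612) where a dysplasia and a transgenic array shared a number, against -0.15 for different numbers. The array number was therefore used as a replicate block in alternative fits, while the main fits and the pair tests were unpaired. The sources do not say that a number marks a mouse. Number 4 had the lowest correlation (0.219), and its Xist signals were 9674 on dysplasia 4 and 84.98 on transgenic 4. Transgenic and non-transgenic arrays, from different mice, also deviated together by number (0.135 to 0.793, mean 0.452), and dysplasia and non-transgenic arrays less so (mean 0.405, -0.00366 for number 4). The actin ratio was highest for number 2 in all 3 groups (75.2%, 63.4% and 72.8% for dysplasia, transgenic and non-transgenic) and lowest for number 5 (25.1%, 12.5% and 14.1%). What a shared number stands for across mice was not tested. Alternatives changed the offset, the scaling, the signal limit, the arrays fitted, the variance model, the test (SAM, 100 permutations) or added a covariate or the array number. Leaving out 2 arrays at odds with their labels, and the motif AGGAAG, were chosen after seeing the data.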

Additional observations from a re-analysis of the deposited data

Results flagged for a closer look

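Of 48 sets of 5 arrays (16 tested member probe sets in 3 groups), 3 held an array far from the others of its group by Dixon's ratio of gap to range, above the critical value of 0.71. Chance flags about 1 in 20 such sets. For Notch1 (1418634_at), dysplasia 1 read 3185 while the next array of its group read 2035 (ratio 0.787), and transgenic 1 read 5584 while the next read 3060 (ratio 0.795). These arrays carry the same number. For Jag1 on its dim probe set (1421106_at), non-transgenic 5 read 74.5 while the next array read 168.2 (ratio 0.877).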

How the results depend on the processing

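The number of called member probe sets stayed within 1.5 times of the main count under every alternative run. It was 8 to 10 against transgenic tissue, where the main count is 8, and 8 to 12 against non-transgenic tissue, where it is 10. It was 0 between transgenic and non-transgenic tissue. Leaving out 1 array at a time gave 8 to 9, 8 to 10 and 0. Of 404 recomputed values of called probe sets, 0 moved by over 1.5 times. With the array number as a replicate block, the member counts were 10, 12 and 0, and those over all tested probe sets also rose, from 7192, 9523 and 272 to 10661, 10741 and 329. Against non-transgenic tissue the block added 1418633_at of Notch1 (adjusted p = 0.0360) and 1426431_at of Jag2 (adjusted p = 0.0328). The actin ratio as a covariate and SAM added the same probe sets (0.000161 and q = 0.0211 for Notch1, 0.0221 and q = 0.0181 for Jag2), and Xist as a covariate added that of Jag2 (adjusted p = 0.0163).

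For the 24 pairs, the paired sign-flip version, the test with the replicate block, passed 0 in place of 18. With 5 pairs of arrays its smallest p of 0.0625 cannot pass the threshold. Leaving out 1 array gave 17 to 20 pairs.

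The calls of Notch1 (1418634_at) and Hes1 against non-transgenic tissue were lost without the signal limit (adjusted p = 0.0646 and 0.0593), and that of Notch1 with all 3 groups in 1 fit (adjusted p = 0.0697). SAM called Notch1 against transgenic tissue (q = 0.0331). The causes were not tested.

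Signs turned only for values that had not passed. With the actin ratio as a covariate, Jag1 on 1421106_at gave -0.044 against transgenic and -0.058 against non-transgenic tissue, and Heyl on 1438886_at 0.002 against non-transgenic tissue, where quantile normalization gave 0.045. Between transgenic and non-transgenic tissue, quantile normalization gave -0.02 for Notch1 (1418634_at) and 0.011 for Jag2 (1426430_at), and Xist as a covariate gave -0.147 for Notch1 (1418634_at), 0.002 for Notch4 and 0.025 for Jag2 (1426430_at). Leaving out 1 array at a time gave -0.017 to 0.367 for Jag1 (1421106_at) and -0.158 to 0.005 for Heyl (1419302_at) against transgenic tissue. Against non-transgenic tissue it gave -0.08 to 0.303 for Jag1 (1421106_at) and -0.109 to 0.038 for Heyl (1438886_at). Between transgenic and non-transgenic tissue it gave -0.208 to 0.103 for Notch1 (1418634_at), -0.048 to 0.055 for Notch2, -0.069 to 0.072 for Jag2 (1426430_at) and -0.031 to 0.192 for Hes1.

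Over all probe sets, the count called between transgenic and non-transgenic tissue was 272. It was 110 with Xist and 506 with the actin ratio as a covariate, 147 and 123 without transgenic 2 or 3, and 126, 143, 118 and 179 without non-transgenic 1, 2, 3 or 4.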
